A study of Mus musculus with 6 samples.

Results

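Genes for the mitochondrial ribosome and for expression of the mitochondrial genome were followed through the chromatin of CD8+ T cells given palmitate. A gene was a member if its symbol started with Mrpl or Mrps, or if it was 1 of 14 named genes that regulate, copy, transcribe or translate mitochondrial DNA. Of 92 such protein-coding genes, 84 had at least 1 of the 24605 regions of the count matrix within 1 kb of either end of the gene. These were 45 of 49 large subunit genes, 27 of 29 small subunit genes and 12 of 14 others, with 91 regions in all. Here and below, large and small subunit genes are classes by symbol only, Mrpl and Mrps, and the place of each protein was not checked. Each gene is represented by its main region, the one with the highest mean count. There were 83 main regions, because Mrpl46 and Mrps11 share 1. Mrpl4, Mrpl22, Mrpl24, Mrpl43, Mrps2, Mrps23, Polg and Twnk had no region that met the rule. At the limit of the rule lay Mrpl18 just inside, 970 bp from its gene end (log2 fold change 0.22), and Polg just outside, at 1070 bp (0.14).

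Wild-type mice gave the CD8+ T cells, per the labels from pancreas, spleen and lymph nodes, with 50000 sorted cells in each ATAC-seq library. The palmitate group (3 libraries) received 100 µM of this saturated fatty acid for 48 hours and the control group (3 libraries) did not. The labels carry the palmitate text on the control libraries too and name no vehicle, and they do not say whether replicates came from separate animals or cultures. All p-values below speak only to the variation among these 6 libraries, and part or all of it may be technical. ATAC-seq counts transposase cuts, so a higher value in a bulk library can mean that more cells had a region open or that it was more open in each cell, and these cannot be told apart.

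Mitochondria keep a small genome of their own that encodes core subunits of the respiratory chain, and a dedicated ribosome translates its messages. The RNAs of that ribosome are made in the mitochondrion, while its Mrpl and Mrps proteins and all the factors that copy and transcribe mitochondrial DNA are encoded in the nucleus and imported. Activated T cells are known to expand their mitochondria and depend on mitochondrial translation to proliferate and kill, and NRF1, ERR and PGC-1 family proteins are the textbook nuclear regulators of this programme.

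Promoter sequence is shown for 7 members: the 2 that rose under both TMM scaling and trended offsets (Mrpl49, Mrpl32), the strongest small subunit regions that rose (Mrps18b, Mrps14), a divergent promoter that did not pass the test (Mrpl46 with Mrps11), a regulator that rose (Esrra) and a mitochondrial DNA factor that did not pass (Tfam). Each runs 5′ to 3′ on the gene's strand and ends at the last base before the start listed in RefSeq (GRCm38.p6). It reaches back 250 bases or to the span of the neighbouring gene, and capitals mark exact motif matches. The stretches are chr19:6057756-6057946, minus strand for Mrpl49, chr13:14613038-14613241, minus strand for Mrpl32, chr17:35916441-35916511, minus strand for Mrps18b, chr1:160194965-160195214, plus strand for Mrps14, chr7:78783090-78783130, minus strand for Mrpl46, chr19:6921809-6922058, minus strand for Esrra and chr10:71238045-71238294, minus strand for Tfam.
Mrpl49: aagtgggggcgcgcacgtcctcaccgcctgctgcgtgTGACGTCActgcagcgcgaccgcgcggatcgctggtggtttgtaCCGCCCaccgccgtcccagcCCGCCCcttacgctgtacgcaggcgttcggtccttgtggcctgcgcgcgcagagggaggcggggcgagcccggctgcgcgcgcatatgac
Mrpl32: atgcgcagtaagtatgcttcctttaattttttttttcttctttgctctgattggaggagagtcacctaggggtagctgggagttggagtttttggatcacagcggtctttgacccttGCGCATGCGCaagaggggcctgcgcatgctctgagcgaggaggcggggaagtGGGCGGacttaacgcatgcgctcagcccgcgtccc
Mrps18b: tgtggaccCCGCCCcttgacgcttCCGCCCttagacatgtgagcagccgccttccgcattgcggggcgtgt
Mrps14: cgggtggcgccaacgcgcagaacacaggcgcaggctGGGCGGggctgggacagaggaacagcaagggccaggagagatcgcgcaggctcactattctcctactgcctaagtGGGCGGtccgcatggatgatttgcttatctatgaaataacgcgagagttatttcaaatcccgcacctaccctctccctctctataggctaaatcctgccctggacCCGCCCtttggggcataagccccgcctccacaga
Mrpl46: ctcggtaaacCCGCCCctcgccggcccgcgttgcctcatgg
Esrra: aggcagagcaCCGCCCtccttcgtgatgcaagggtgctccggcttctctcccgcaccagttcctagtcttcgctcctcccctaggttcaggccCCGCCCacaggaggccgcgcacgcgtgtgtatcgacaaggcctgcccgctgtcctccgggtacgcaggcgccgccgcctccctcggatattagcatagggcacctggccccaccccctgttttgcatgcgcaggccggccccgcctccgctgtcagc
Tfam: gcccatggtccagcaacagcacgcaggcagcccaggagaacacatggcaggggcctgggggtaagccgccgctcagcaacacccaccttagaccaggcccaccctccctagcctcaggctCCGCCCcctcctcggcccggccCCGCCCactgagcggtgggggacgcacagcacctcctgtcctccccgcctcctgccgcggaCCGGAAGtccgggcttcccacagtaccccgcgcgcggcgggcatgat
Mrpl32 has an NRF1 match beginning 87 bases before its start, Tfam has an ETS match beginning 47 bases before, and Mrpl49 has a CRE match beginning 154 bases before. All 7 hold at least 1 GC box on one strand or the other. The Mrpl46 stretch is 41 bases long, which is the whole gap to Mrps11, and that of Mrps18b is 71 bases, up to Ppp1r10.

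Accessibility at the main regions was higher with palmitate at 26 of 83 and lower at none (edgeR quasi-likelihood test, Benjamini-Hochberg adjustment over 24316 tested regions). The risers were 13 of 45 large subunit genes, among them Mrpl49, Mrpl32 and Mrpl17, 7 of 27 small subunit genes, led by Mrps18b and Mrps14, and 6 of 12 regulators and genome expression factors, among them Nrf1 and Esrra. All were small changes, with log2 fold changes from 0.22 to 0.59 (median 0.33). The share of 31.3% stands beside 26.4% higher and 1.92% lower among the main gene-end regions of all 8740 gene ends tested in the same way, and beside 11.9% higher and 12.7% lower among all tested regions. The members were thus near the background of gene ends in general. Their median log2 fold change was 0.19 against 0.15 over all main gene-end regions. The value was positive at 64 of 83, beside 73.67% of all main gene-end regions. No member passed as lower by DESeq2 or limma-voom either, which called 21 and 26 higher. Over all main gene-end regions DESeq2 called 18.02% higher and 0.4691% lower, and limma-voom 25.69% and 1.705%. At an unadjusted p under 0.05 the edgeR test had 34 members higher and 3 lower. Shares over all main gene-end regions at this unadjusted threshold were not computed, here or below.

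**Figure D1:**
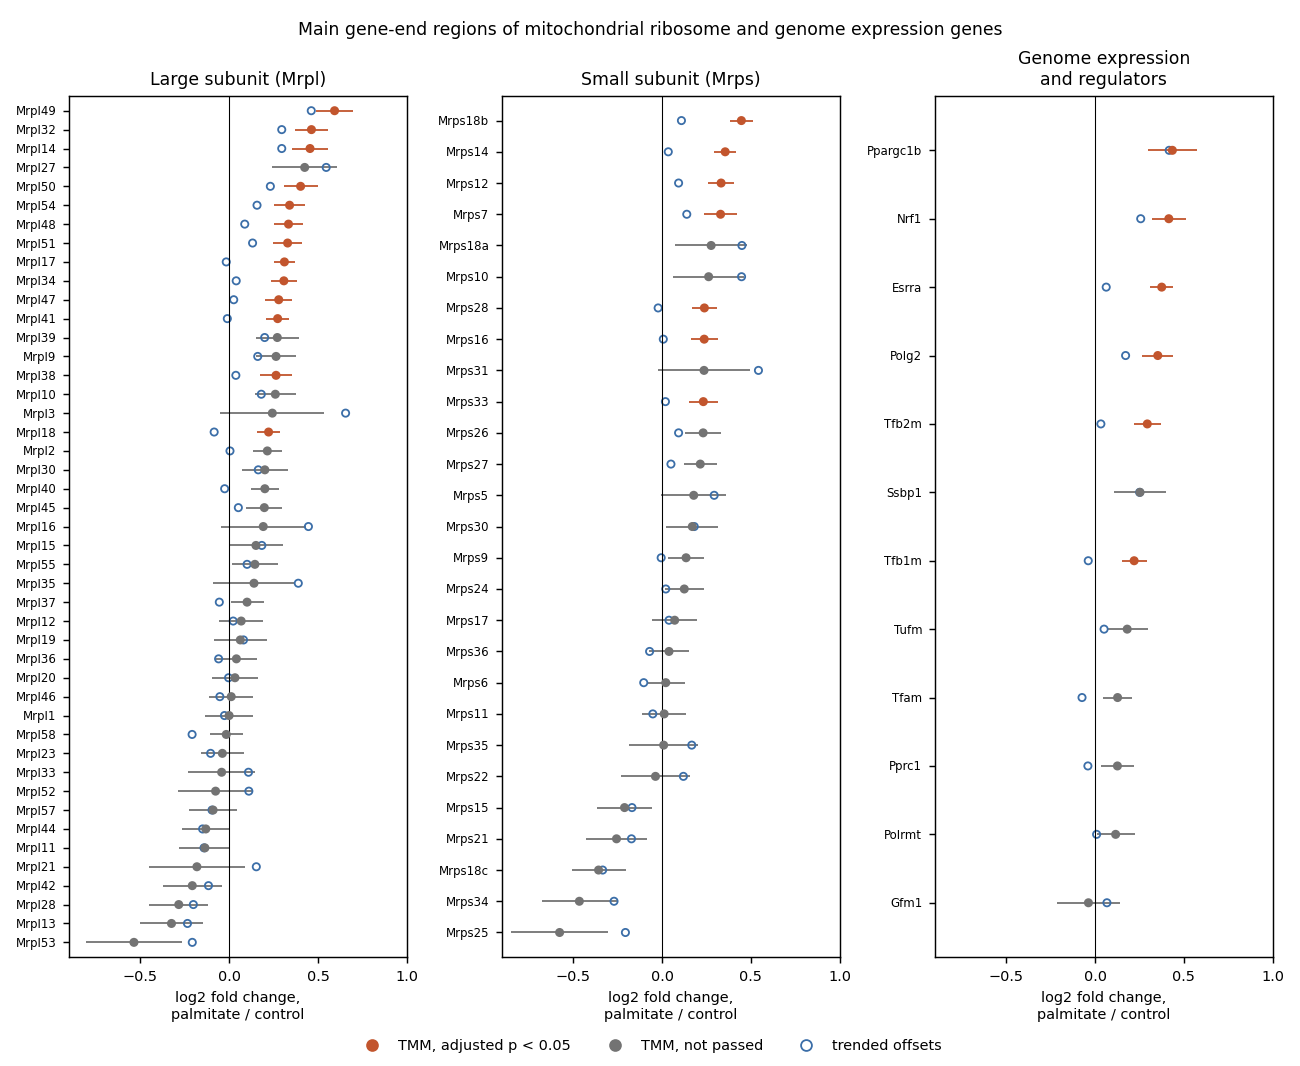
Log2 fold change (palmitate over control) at the main region of each of 84 genes, in 3 panels by class; filled points with bars are TMM-scaled values ± SE, and open circles are values with trended offsets. Filled red points, all to the right of 0, are the 26 regions that passed the test, and their open circles lie closer to 0.

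The size of the change followed the strength of the region, in members as in other genes. When main gene-end regions were split into quartiles of mean count (bounds 69, 139 and 268 reads), 0 of 20, 1 of 21, 8 of 22 and 17 of 20 members rose, from the weakest to the strongest quartile. Over all genes the shares were 1.69%, 6.87%, 27.3% and 69.8%. The strongest quartile of members thus had 85% higher, and its median log2 fold change was 0.28 against 0.27 over all genes. In the weakest quartile the members' median was -0.04 against -0.07, with 1 member higher and 2 lower at an unadjusted edgeR p under 0.05, and DESeq2 and limma-voom called none there. A small p is also reached at a lower fold change where counts are high.

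**Figure D2:**
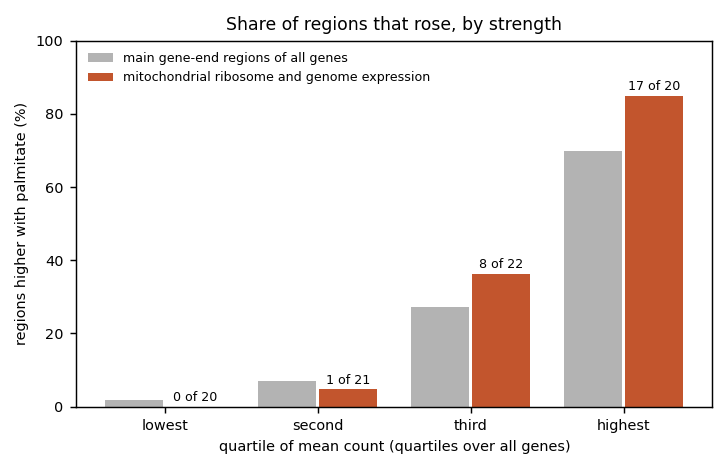
Percent of main gene-end regions higher with palmitate (edgeR adjusted p under 0.05) by quartile of mean count, for all genes (grey) and for the mitochondrial ribosome and genome expression genes (red, with counts). Both rise from near 0 in the weakest quartile to 69.8% and 85% in the strongest.

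Trended offsets, which remove each library's smooth trend of counts on region strength whatever its origin, left 2 members higher, Mrpl49 and Mrpl32, and none lower. The background under these offsets was 2.62% higher and 1.34% lower. The members' median log2 fold change became 0.04, against 0.05 for all main gene-end regions. At an unadjusted p under 0.05, 12 members were higher and 2 lower under these offsets. Of the 26 regions that rose under TMM scaling, 21 had a positive and 5 a negative trended value.

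**Figure D3:**
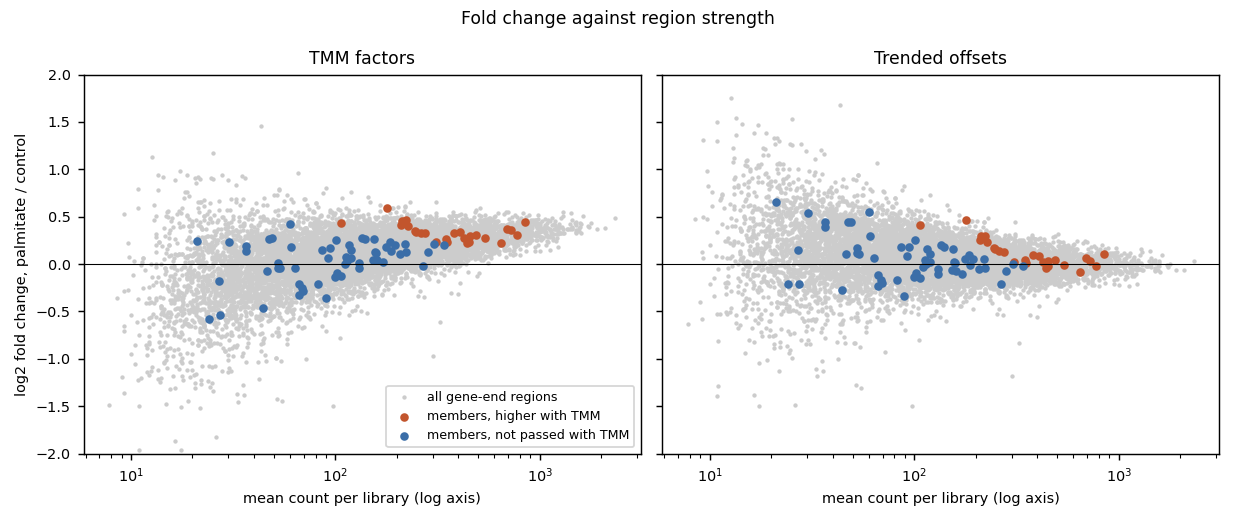
Log2 fold change (palmitate over control) against the mean count per library (log axis) under TMM scaling (left) and trended offsets (right); grey points are 9408 tested gene-end regions, red members rose under TMM and blue members did not pass (1 grey point beyond the left axis is not drawn). Red points lie at higher counts and between 0.22 and 0.59 on the left, and centre near 0 on the right.

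Of the 4 nuclear regulators, 3 rose, and none of the 4 passed with trended offsets. The background is 26.4% of all main gene-end regions, and it differs by quartile of mean count. It is 69.8% in the strongest quartile, where Esrra lies, and 27.3% in the third, where Nrf1 and Pprc1 lie. Ppargc1b lies in the second quartile, where 6.87% rose. Esrra, which encodes the oestrogen-related receptor alpha that activates genes of oxidative metabolism, lies on chromosome 19 (6921721 to 6922233), and its region reached 230.5, 208 and 225 CPM in controls 1 to 3 and 276, 281 and 302 CPM in palmitate libraries 1 to 3. CPM are counts scaled to the TMM library size. The groups did not overlap. The log2 fold change, given with its standard error here and below, was 0.38 ± 0.06 (edgeR adjusted p 9.18e-05). The region is also within 1 kb of Catsperz, a sperm calcium channel gene, so the value belongs to both gene ends. With trended offsets the Esrra value was 0.06 (edgeR adjusted p 0.542).

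Nrf1 encodes the transcription factor whose motif is common in promoters of nuclear genes for mitochondria. Its region (chromosome 6, 30047735 to 30048512) covers the gene's own end alone and gave 67.1, 72.2 and 58.5 CPM in the controls and 91.5, 84.9 and 87.4 CPM with palmitate. All palmitate libraries were above all controls, and the log2 fold change was 0.42 ± 0.10 (edgeR adjusted p 0.0021). Under trended offsets the Nrf1 value was 0.26 (edgeR adjusted p 0.108), so the change no longer passed.

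Ppargc1b, the PGC-1 beta coactivator, was the weakest of the 3 regulators that rose. Its region (chromosome 18, 61400171 to 61400677) gave 31.8, 36.9 and 31.3 CPM in the controls and 52.0, 41.5 and 42.6 CPM with palmitate, the first palmitate library standing above the rest. The log2 fold change was 0.44 ± 0.14 (edgeR adjusted p 0.0194). Without palmitate replicate 1 it was 0.33 (edgeR adjusted p 0.127), and it also missed the threshold without control replicate 1 (0.0554) or control replicate 3 (0.0649). Trended offsets left its size nearly as it was, at 0.42 (edgeR adjusted p 0.0627). A stronger region inside Ppargc1b (61398612 to 61399387) held 44.9 ± 2.34 CPM in control and 44.1 ± 3.33 CPM with palmitate (SD, n = 3), a log2 fold change of -0.02. Pprc1, a coactivator related to PGC-1, had 78.9, 77.2 and 78.2 CPM in control and 80.4, 83.9 and 91.3 CPM with palmitate. Its groups did not overlap, but the log2 fold change of 0.13 did not pass (edgeR adjusted p 0.327).

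Of the 6 factors of mitochondrial DNA and its transcripts, 3 rose and 3 did not pass, beside 26.4% higher among main gene-end regions of all genes. None of the 6 passed with trended offsets. Polg2 encodes the accessory subunit of the mitochondrial DNA polymerase. Its region, within 1 kb of the helicase gene Ddx5 as well, had 85.0, 76.2 and 77.9 CPM in control and 102, 102 and 100.5 CPM with palmitate. The palmitate libraries were close together and above every control, with a log2 fold change of 0.35 (edgeR adjusted p 0.00317). Tfb2m, a transcription initiation factor that works with the mitochondrial RNA polymerase, had 158, 142 and 151 CPM in control and 163, 190 and 198 CPM with palmitate. The first palmitate library lay just above the highest control, and the log2 fold change was 0.29 (edgeR adjusted p 0.0048). Without palmitate replicate 3 the Tfb2m value was 0.24 (edgeR adjusted p 0.0564), and Cnst shares the region.

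Tfb1m, an rRNA methyltransferase needed to assemble the small subunit, had 149, 147 and 152 CPM in control and 170, 174 and 178 CPM with palmitate. Its groups did not overlap, the log2 fold change was 0.22 (edgeR adjusted p 0.0197), and with trended offsets it was -0.04. Leaving out palmitate replicate 2 or 3 gave an edgeR adjusted p of 0.0535 or 0.0815 for Tfb1m. Tfam packages mitochondrial DNA and starts its transcription, and its region held 96.7, 97.2 and 103 CPM in control and 109, 113 and 102 CPM with palmitate. One palmitate library lay among the controls, and the Tfam log2 fold change was 0.13 (edgeR adjusted p 0.268). Polrmt, the mitochondrial RNA polymerase, had a log2 fold change of 0.12 (edgeR adjusted p 0.453). Ssbp1, which coats single-stranded mitochondrial DNA, had 0.25 (edgeR adjusted p 0.207).

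Both elongation factor genes of mitochondrial translation gave no call. Tufm, which delivers charged tRNAs to the ribosome, had 71.0, 49.6 and 64.3 CPM in control and 63.1, 68.0 and 76.7 CPM with palmitate, with overlapping groups and a log2 fold change of 0.18 (edgeR adjusted p 0.261). Gfm1, which moves the ribosome along the message, had 23.6 ± 4.08 CPM in control and 23.06 ± 2.398 CPM with palmitate (SD, n = 3). Its log2 fold change was -0.04 (edgeR adjusted p 0.903), and neither gene had an unadjusted p under 0.05 or a call by DESeq2 or limma-voom.

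Among large subunit proteins, Mrpl49 changed most. Its region on chromosome 19 (6057705 to 6058146) had 52.3, 47.9 and 57.5 CPM in control and 71.0, 84.3 and 82.1 CPM with palmitate. The groups were well apart, and the log2 fold change was 0.59 ± 0.11 (edgeR adjusted p 0.000138). It was 0.46 with trended offsets (edgeR adjusted p 0.00667), and it passed in all 27 alternatives run for it. The promoter is divergent, shared with Fau, a gene for a ubiquitin-like protein fused to a cytosolic ribosomal protein.

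Mrpl32, whose product is matured by a mitochondrial protease before it joins the ribosome, had 65.8, 67.2 and 73.4 CPM in control and 95.0, 88.3 and 102 CPM with palmitate (chromosome 13, 14612932 to 14613531). Its log2 fold change was 0.46 ± 0.09 (edgeR adjusted p 0.000516), with no overlap between groups. Its trended value of 0.30 passed narrowly (edgeR adjusted p 0.0466). It missed the threshold with trended offsets and a library left out, except without palmitate replicate 2, with edgeR adjusted p from 0.0404 to 0.191, and with the replicate block and trended offsets (edgeR adjusted p 0.0507). The neighbour on this promoter is Psma2, a proteasome subunit gene.

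Mrpl17, a protein near the exit of the peptide tunnel, had the highest level per length of all members, 558 CPM per kb. It gave 244, 259 and 254 CPM in control and 311, 319 and 309.8 CPM with palmitate, and no other protein-coding gene ends within 1 kb. The libraries within each group were close, and the log2 fold change was 0.31 (edgeR adjusted p 0.00035), but -0.02 with trended offsets. Mrpl14, a core protein of the large subunit that shares its region with Tmem63b, had 71.9, 57.9 and 68.7 CPM in control and 78.1, 95.8 and 96.3 CPM with palmitate. Its log2 fold change was 0.46 (edgeR adjusted p 0.00147; trended 0.30, edgeR adjusted p 0.0673). Mrpl34, shared with Abhd8, had 165, 145 and 170.0 CPM in control and 190.4, 210.0 and 192 CPM with palmitate, a log2 fold change of 0.31 (edgeR adjusted p 0.00239) that fell to 0.04 with trended offsets. Control replicate 2 was the lowest control at Mrpl49, Mrpl14 and Mrpl34, and at 14 of all 26 regions that rose. Leaving it out gave 28 members higher in place of 26. Over all main gene-end regions 24.4% were then higher, in place of 26.4%.

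The small subunit was led by Mrps18b, 1 of 3 Mrps18 paralogues among the members. It was the strongest member by CPM (chromosome 17, 35916178 to 35917054), with 277, 251 and 269 CPM in control and 331, 376 and 376 CPM with palmitate. All palmitate libraries exceeded all controls, and the log2 fold change was 0.45 ± 0.06 (edgeR adjusted p 1.12e-05). With trended offsets the value was 0.11 (edgeR adjusted p 0.227), and the region is shared with Ppp1r10. Its paralogues had log2 fold changes of 0.28 for Mrps18a and -0.36 for Mrps18c, and neither passed (edgeR adjusted p 0.334 and 0.0824). The difference between the 3 paralogues was not tested.

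Mrps14, a conserved protein of the small subunit head, stood on a promoter of its own with 222, 239 and 240.4 CPM in control and 305, 297 and 296 CPM with palmitate. The 3 palmitate libraries were nearly equal and far above the controls, with a log2 fold change of 0.36 (edgeR adjusted p 0.000103; trended 0.04). Mrps12, the protein of the decoding centre, shares its promoter with Sars2, the mitochondrial seryl-tRNA synthetase, so 2 genes of mitochondrial translation lie at 1 region. It held 129, 124 and 119 CPM in control and 157, 150.5 and 161 CPM with palmitate, a log2 fold change of 0.33 (edgeR adjusted p 0.00135; trended 0.09).

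At the other end of the range, weak regions had wide errors. Mrps25, a small subunit protein, had 9.15, 11.98 and 10.2 CPM in control and 6.70, 7.82 and 6.52 CPM with palmitate. Its groups did not overlap, but the log2 fold change of -0.58 ± 0.27 did not pass (edgeR adjusted p 0.123). The 2 weakest large subunit regions, at Mrpl3 and Mrpl21, were at 0.24 ± 0.29 and -0.18 ± 0.27 on the log2 scale (edgeR adjusted p 0.584 and 0.666). A change of the size seen at the strong members was not detectable at this depth in such regions. The promoter between Mrpl46 and Mrps11 had 41.4, 49.9 and 50.7 CPM in control and 50.5, 43.8 and 50.2 CPM with palmitate, with a log2 fold change of 0.01 ± 0.12. Over all 83 main regions the groups did not overlap at 36 with palmitate above and at 7 with palmitate below, beside 37.2% and 5.8% over all main gene-end regions. The 7 below were Mrps25, Mrpl53, Mrps34, Mrps18c, Mrpl13, Mrpl28 and Mrpl42, with log2 fold changes from -0.58 to -0.21 and edgeR adjusted p from 0.0824 to 0.388.

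**Figure D4:**
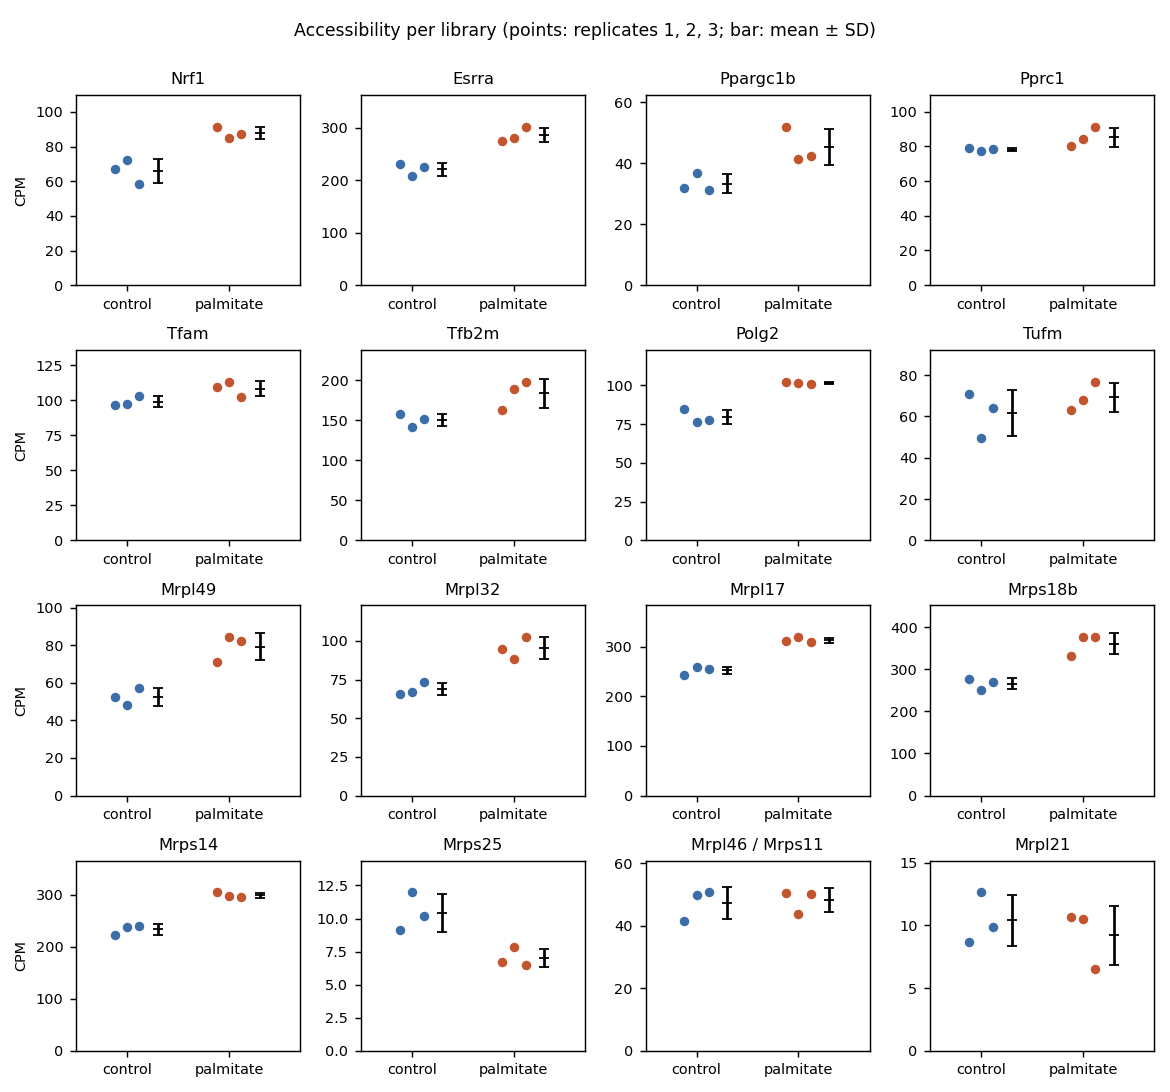
CPM in each library at the main region of 16 members or pairs, with controls in blue and palmitate in red, replicates 1 to 3 from left to right, and the mean ± SD beside them; each panel has its own axis from 0. Mrps18b goes from between 251 and 277 to between 331 and 376 CPM, while Mrpl46 with Mrps11 and Tufm overlap.

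The 8 further gene-end regions of members behaved differently from gene to gene. The second Mrps18b region, shared with Atat1, rose from 40.6 ± 2.92 to 51.0 ± 4.79 CPM (SD, n = 3; log2 fold change 0.33, edgeR adjusted p 0.0494). At Mrpl36, a small protein of the large subunit, the second region lies on the start listed in RefSeq (chromosome 13, 73330939 to 73331396). It had 24.0, 24.6 and 20.7 CPM in control and 13.4, 15.97 and 17.6 CPM with palmitate. All palmitate libraries were below all controls, so this region fell, its log2 fold change being -0.56 ± 0.19 (edgeR adjusted p 0.0336). With trended offsets it was -0.40 and did not pass (edgeR adjusted p 0.212). The main Mrpl36 region, shared with Ndufs6, had a log2 fold change of 0.04. The other 6, at Esrra, Mrpl2, Mrpl38, Mrpl58, Mrps6 and Mrps34, gave no call. Over all genes 6.89% of such further regions rose and 9.58% fell.

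Inside the spans of 14 member genes, over 1 kb from a gene end, were 18 regions, of which 1 rose and 4 fell. Among the 18 are the regions of Mrpl22, Mrpl24, Mrps2, Mrps23 and Polg that hold a listed start, described below. Over all genes 4.3% of regions inside genes rose and 19.6% fell. Mrps28 held the fall with the smallest p, at a region on chromosome 3 (8845602 to 8846153) in 3 of the 6 peak lists. This region had 20.9, 7.32 and 22.8 CPM in control and 5.52, 5.44 and 5.37 CPM with palmitate. Control 2 stood near the palmitate libraries, and the log2 fold change was -1.62 ± 0.32 (edgeR adjusted p 0.000495). It was the only one of the 18 to pass with trended offsets (-1.33, edgeR adjusted p 0.0138), where 6.04% of regions inside genes fell. The main region of Mrps28, at its gene end, rose from 151 ± 5.98 to 179 ± 4.74 CPM (SD, n = 3; log2 fold change 0.24, edgeR adjusted p 0.0121). Both regions inside Mrpl1 fell, with log2 fold changes of -1.63 and -1.88 (edgeR adjusted p 0.00104 and 0.00124), while the main Mrpl1 region stood at 0.00. These 2 were weak regions, with mean CPM from 8.96 to 2.89 and from 8.07 to 2.15, and lay in 3 and 2 of the 6 peak lists. A region inside Tfb1m, also weak (5.45 to 2.63 CPM, in 2 of the 6 peak lists), fell by 1.08 (edgeR adjusted p 0.0435). One inside Mrps27, another small subunit gene, rose by 0.29 (edgeR adjusted p 0.00866).

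Among genes with no region by the rule, 5 had a listed start that lay inside a region of the matrix farther from the ends of the gene span: Mrpl22, Mrpl24, Mrps2, Mrps23 and Polg. Their edgeR adjusted p ran from 0.217 to 0.958, and Polg, the catalytic subunit of the mitochondrial DNA polymerase, had 113 ± 10.4 CPM in control and 124 ± 4.27 CPM with palmitate (SD, n = 3; edgeR adjusted p 0.217). When each gene was instead represented by the region that holds a listed start, a choice made after seeing the data, 22 of 78 regions rose and 1, at Mrpl36, fell. The share over all genes by this rule was not computed, and 26.4% of main gene-end regions of all genes rose.

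Many of these regions lay near a second gene. Of the 83 main regions, 38 (45.8%) lay within 1 kb of the end of another protein-coding gene, against 17.7% of main gene-end regions of all genes. The other end can be a start or a far end, so this is not a count of shared promoters. Of the 38 shared regions 18 rose, and of the 45 others 8 rose, beside 26.4% of main gene-end regions of all genes. The same split was not made over all genes, so these counts do not set the members apart. Shared regions were also stronger, with a median of 79.3 against 41.5 CPM, and the part of strength in this difference was not tested. Large subunit regions were shared in 26 of 45 cases and small subunit regions in 10 of 27. The members' regions had a median width of 593 bp against 574 bp, and 97.6% of them were in all 6 of the authors' peak lists against 87.9%.

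RefSeq promoter windows (250 bases before to 50 after the start) were found for 75 of the 84 genes, and in 72 the window overlapped the main region. The region covered the start in all 72, and its centre lay a median of 22.2 bp upstream of it. The windows of the members had 58.5% GC in the median, with 62.2% for those that rose and 57.8% for the rest. Motifs were searched on both strands as exact letters, and a match describes the sequence only. The NRF1 motif (GCGCA and GCGC separated by 1 base) was in 14 of 72 windows (19.4%), beside 12.9% of the 9275 promoter windows that overlap a region and 6.44% of all 21045. The ETS motif CCGGAAG was in 26 (36.1%), beside 22.1% and 11.7%, and the YY1 motif AAGATGG in 12 (16.7%), beside 7.76% and 6.28%.

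The GC box GGGCGG was in 39 member windows (54.2%), beside 70.8% of windows that overlap a region and 46.7% of all. It was in 17 of the 22 windows of members that rose and in 22 of the other 50. NRF1 was in 3 of those 22 and 11 of the other 50, and the ETS motif in 8 and 18. These splits, like that of GC content above, were not made over all genes. The part of region strength in them was not tested. The E-box CACGTG was in 3 windows, the ERR motif CAAGGTCA in 2 and the CRE motif TGACGTCA in 2 of the 72, beside 11.2%, 0.809% and 3.83% of windows that overlap a region and 7.91%, 1.29% and 2.26% of all.

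**Figure D5:**
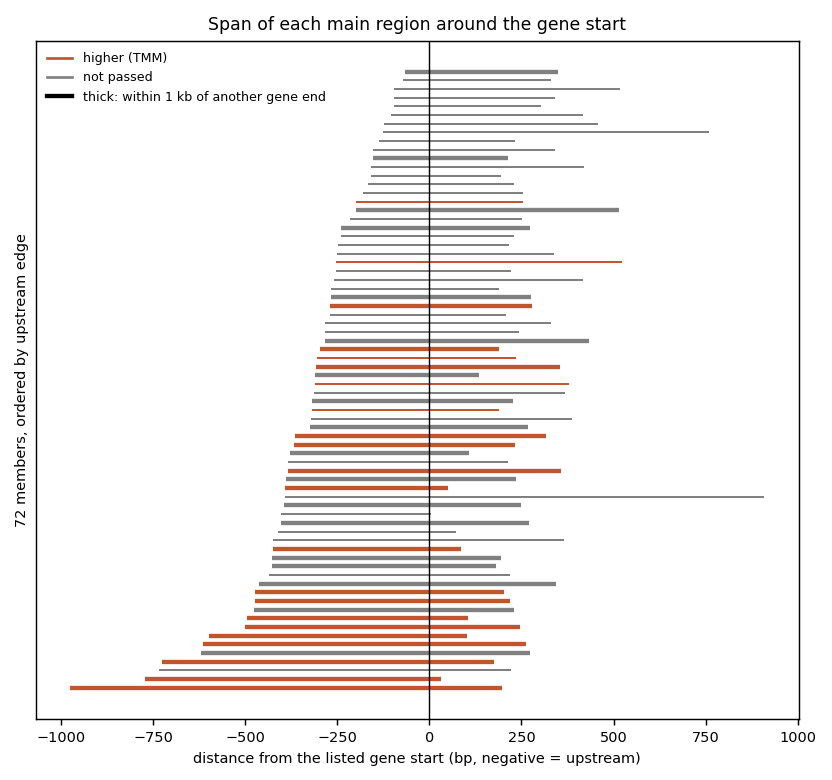
Span of the main region around the listed gene start (0, in bp, negative is upstream) for 72 members, ordered by upstream edge; red regions rose, grey ones did not pass, and thick lines are regions within 1 kb of another gene's end. Every span crosses the start, and thick lines crowd towards the bottom, where regions reach farthest upstream.

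A smaller share of regions rose in 5 lists for other parts of the machinery, and the difference from the members was not tested. The background for each list is the 26.4% of main gene-end regions of all genes that rose. None of 5 mitoribosomal proteins with other names, such as Dap3 and Ptcd3, passed, with 2 of 5 higher at an unadjusted edgeR p under 0.05 and none called by DESeq2 or limma-voom. Of 23 assembly factors 4 rose and none fell, among them Mpv17l2, which binds the large subunit (169 ± 4.34 to 222 ± 4.29 CPM, SD, n = 3; edgeR adjusted p 6.86e-05), and Tfb1m again. Of 15 translation factors and messenger binding proteins, Tufm and Gfm1 included, 1 rose, Mtrf1l, a release factor (290.2 ± 5.43 to 367 ± 11.5 CPM, SD, n = 3; edgeR adjusted p 9.80e-05). Of 24 mitochondrial tRNA synthetase and related genes 3 rose, Mars2, Gatb and Sars2, the last being the region it shares with Mrps12. Of 29 further genes of mitochondrial DNA and RNA upkeep 7 rose, led by Elac2, which trims mitochondrial tRNAs (86.6 ± 9.35 to 119 ± 1.22 CPM, SD, n = 3; edgeR adjusted p 0.000277). Median log2 fold changes were 0.19 for the proteins with other names, 0.10 for assembly factors, 0.03 for translation factors, 0.17 for synthetases and 0.11 for upkeep genes. No region of the last 4 lists fell by edgeR, DESeq2 or limma-voom. At an unadjusted edgeR p under 0.05, 1 assembly factor and 1 of the 29 were lower. With trended offsets no region of the 5 lists passed as higher. Mpv17l2, Mtrf1l and Elac2 then had log2 fold changes of 0.11, -0.01 and 0.25 (edgeR adjusted p 0.283, 0.961 and 0.0671). Lrpprc and Rrm2b passed as lower under these offsets (edgeR adjusted p 0.0305 and 0.0154).

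Of 15 other regulators of mitochondrial biogenesis 6 rose: Sirt1, Sp1, Yy1, Ppara, Ppard and Hcfc1. Sirt1, a deacetylase that acts on PGC-1 proteins, went from 63.5 ± 3.79 to 96.4 ± 18.1 CPM (SD, n = 3; log2 fold change 0.61, edgeR adjusted p 0.000133) and passed with trended offsets (0.44, edgeR adjusted p 0.0108). It was the only 1 of the 15 called higher with trended offsets. Gabpa, the ETS factor that binds many mitochondrial promoters, had a log2 fold change of 0.15 (edgeR adjusted p 0.152), and Ppargc1a had no region by the rule. For comparison, 27 of 80 cytosolic ribosomal protein regions rose (median log2 fold change 0.22), and 17 of 74 respiratory chain regions rose and 1 fell (0.12). Under trended offsets the medians of these 2 lists were 0.09 and 0.02, against 0.04 for the members.

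The libraries held 2219136 to 3089230 counts in regions. Main regions of the members took 0.5996% to 0.6012% of counts in control and 0.641% to 0.656% with palmitate. This share was not computed for gene ends in general, of which 26.4% of main regions rose. Single members had 15 to 1105 reads per library. All 12 CD8 T cell marker genes had a gene-end region, of which none rose and Thy1 fell by edgeR (log2 fold change -0.55, adjusted p 0.0108). With trended offsets Thy1 was at -0.49 (edgeR adjusted p 0.0594), and DESeq2 called no CD8 marker lower while limma-voom called 1. None of the 12 was higher at an unadjusted p under 0.05, or called higher by DESeq2 or limma-voom. Regions were found for 2 of 5 CD4 T cell genes, 1 of 7 B cell genes, 2 of 5 natural killer genes, 4 of 11 myeloid genes, 1 of 11 pancreas genes and 1 of 7 stroma genes, and Cd4, Foxp3, Cd79a, Lyz2 and Ins1 had none. The summed level of the myeloid genes was 36.2 to 46.2 CPM in control and 44.5 to 48.1 CPM with palmitate, with Itgam higher by edgeR (log2 fold change 0.91, adjusted p 0.0151), no myeloid call by DESeq2, and Spi1, Cebpa and Flt3 at 0.08, -0.01 and -0.37. In control and with palmitate, natural killer genes summed to 59.3 to 67.3 and 75.7 to 84.4 CPM. These were Eomes and Tyrobp, with log2 fold changes of 0.35 and 0.30 (edgeR adjusted p 0.092 and 0.0868). Tyrobp shares its region with Hcst. CD4 genes summed to 48.6 to 69.3 and 61.9 to 87.7 CPM, and B cell genes to 9.32 to 15.3 and 11.1 to 22.4 CPM. The pancreas gene gave 35.4 to 44.5 and 28.9 to 42.6 CPM, and the stroma gene 21.96 to 27.9 and 19.2 to 26.5 CPM. In the CD4 list Zbtb7b rose by edgeR (log2 fold change 0.48, adjusted p 0.0121) but not by DESeq2, and not with trended offsets (edgeR adjusted p 0.0886). By limma-voom 1 region of the CD4 list was higher. The part of these in the members' values was not tested.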

How the data were processed

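ATAC-seq was analysed in 3 control and 3 palmitate libraries. The authors deposited a matrix of raw counts in 24605 regions (median width 443 bp) and, for each library, a peak list with a score from peak calling; scores were ranked within a list only. The submitters' processing notes list mm10, MACS2 2.2.8, Trim Galore 0.6.10, edgeR 3.40.2, Picard 2.23.8 and Bowtie2 2.5.1; whether reads were shifted to the Tn5 cut, and how consensus regions were built and counted, is not given in the sources used here. Every region lay in at least 2 peak lists, and 14761 lay in all 6.

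All regions were fitted in R 4.3.3 with edgeR 4.0.16 (two-sided quasi-likelihood test, TMM factors 0.953 to 1.05, filterByExpr, which kept 24316 regions and dropped 289). A call needed a Benjamini-Hochberg adjusted p under 0.05. The SE of a log2 fold change is its size over the root of the F statistic. Trended offsets were a loess curve (span 0.3, pseudocount 0.5 reads) of log count on mean abundance. Gene spans came from a RefSeq table of GRCm38.p6, the assembly of mm10. Alternatives used DESeq2 1.42.0, limma-voom (limma 3.58.1), other scalings, filters, region rules and a replicate block. Same-numbered libraries were not paired in the main fit. Correlations of their deviations from group means were 0, -0.103 and -0.027, which cannot show whether such libraries share an origin.

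Members and lists were chosen with earlier results of these data known. Named genes were all members outside Mrpl and Mrps, the 8 Mrpl or Mrps regions called higher with the smallest p (the rule allowed 8 called lower, and there were none), members called with trended offsets, and the 3 strongest and 3 weakest Mrpl or Mrps regions; further regions, paralogues and list genes were named after their values were seen.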

Additional observations from a re-analysis of the deposited data

How the results depend on the processing

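Counts of members higher (26 of 83) and lower (0) moved most with scaling. Total counts gave 13 higher and 2 lower (11.9% of all main gene-end regions higher in that setting), upper-quartile factors 20 higher and 1 lower (18.4%), and trended offsets 2 higher (2.62%). Regions in all 6 peak lists gave 16 of 81 higher and 1 lower (14.9%), a false discovery rate of 0.1 gave 1 lower, and regions on a listed start gave 1 lower, or 2 higher with trended offsets. Leaving out 1 library gave 19 to 28 higher and 0 to 1 lower (1 without control replicate 1). With trended offsets it gave 1 to 3 higher and 0 to 1 lower (1 without control replicate 2). Over all main gene-end regions 19.3% to 24.4% were higher with 1 library left out, and 0.744% to 3.33% with trended offsets. The labels do not say whether same-numbered libraries belong together. With the replicate block 26 were higher (24.8% of all main gene-end regions), and with the block and trended offsets 1 (2.09%). Total counts moved the median of all regions from -0.05 to -0.16 on the log2 scale and that of main gene-end regions from 0.15 to 0.04, and the members' calls are relative to this centring.

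Values that changed sign were Tfb1m at -0.038 with trended offsets, -0.037 with the block and trended offsets and -0.050, -0.048, -0.043, -0.032, -0.028 and -0.025 with trended offsets and 1 library left out; Mrpl17 at -0.016, -0.016 and, in 5 of 6, -0.051, -0.035, -0.025, -0.018 and -0.003 in the same settings; and, with trended offsets and 1 library left out, Tfb2m at -0.015, Mrps14 at -0.010 and Mrpl34 at -0.007. Ppargc1b was at -0.023 within 2.5 kb, where another region became its main one. The cause of the other changes was not tested. Precision was lowest at weak regions (SE up to 0.29, at Mrpl3); no member of the weakest quartile passed, and their median log2 fold change was -0.04.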
